A study of Mus musculus with 18 samples.

Results

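The genes described here build and serve cilia, the microtubule-based projections of the cell surface, and were followed in the arcuate nucleus of female mice that were wild type for estrogen receptor α (ERα), carried a mutant form of it, or had its gene knocked out. They were chosen by name, with earlier results of these data known: axonemal dyneins (Dnah, Dnai, Dnali), radial spoke (Rsph), tektin (Tekt), sperm flagellar (Spef) and sperm-associated antigen (Spag) genes, numbered Ift and Bbs genes, and the single genes Foxj1, Ttc18, Odf2l and Cep70. Of 62 symbols with such a name, 56 had a mean of at least 0.5 FPKM (a transcript level in fragments, corrected for transcript length and library size) over all 18 libraries, out of 23235 symbols listed and 14774 genes tested. The lowest means inside this bound were 0.550 FPKM for Spag17 and 0.861 FPKM for Dnahc7a. Just outside were Tekt3 at 0.268 FPKM and Dnahc17 at 0.249 FPKM, with Dnahc8, Rsph6a, Spag11a and Spag11b lower still. The deposited tables use older names, so Dnahc stands for today's Dnah genes and Ttc18 for Cfap70.

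Total RNA of the microdissected arcuate nucleus was sequenced from C57/BL females that had all been ovariectomized. The 3 genotypes were wild type (WT), ERα KIKO and ERα knockout (ERKO), and each was injected with oil or with estradiol benzoate (E2). The hormone dose was 250 ng at first, 5 days after the ovaries were removed, and 1500 ng 1 day later, on day 6. Mice were killed 24 h after the second injection and a 1 h fast. The 6 groups (oil and E2 for each of WT, KIKO and ERKO) held 3 libraries each (n = 3 throughout). KIKO, as the name is generally used, pairs a null allele with a knock-in allele whose receptor has lost its binding to estrogen response elements. The labels do not say how the alleles were made, how old the mice were or whether a library came from 1 mouse, so p-values measure the spread between libraries, part of which may be technical.

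As background, a motile cilium has a ring of doublet microtubules around a central pair, and dynein arms on the doublets make it beat under the control of radial spokes and central apparatus. In the hypothalamus such cilia stand in tufts on the ependymal cells that line the third ventricle, next to the arcuate nucleus, and Foxj1 is the transcription factor that switches on their genes together with RFX factors. Neurons and astrocytes instead carry a single immotile primary cilium, a signalling antenna that holds receptors such as those for melanin-concentrating hormone and somatostatin. Intraflagellar transport (IFT) particles build both kinds of cilium, and the BBSome, a coat named after Bardet-Biedl syndrome, carries membrane proteins into and out of them. Loss of the BBSome causes obesity in mice and people, which is why its genes are studied in arcuate neurons.

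The libraries were checked before the comparisons. Esr1, which encodes ERα, was at 5.38, 6.92 and 11.9 FPKM in WT oil, 2.91, 4.08 and 3.94 FPKM in KIKO oil and 1.62, 2.39 and 2.27 FPKM in ERKO oil, and the 3 WT oil libraries lay above the 3 ERKO oil libraries (log2 change −1.49 ± 0.32, adjusted p = 0.0367, limma). With E2 the values of Esr1 were 3.45, 5.24 and 5.88 FPKM in WT E2, 3.05, 3.89 and 2.85 FPKM in KIKO E2 and 1.91, 2.34 and 0.212 FPKM in ERKO E2. Arcuate genes were present in all 18 libraries, with Pomc from 527 to 1646 FPKM, Agrp from 89.2 to 337 FPKM and Kiss1 from 20.9 to 651 FPKM. The library ERKO E2 3 stood apart: its correlations with the rest were between 0.919 and 0.954, and those of the rest with each other between 0.963 and 0.995. It held the highest value of 17 of the 56 cilium genes (30.4%, against 27.5% of all genes) and the lowest of 9 (16.1%, against 29.7%). The median GC content of these 17 was 52.8% and that of the 9 was 47.8%. Relative depth ran from 0.728 in ERKO E2 3 to 1.503 in KIKO oil 2, with WT oil from 0.778 to 0.954 and ERKO oil from 1.08 to 1.26, so the groups of the first comparison also differed in depth, whose part in the results was not tested. Between 68.5% and 70.5% of low values in a library came out as whole fragments within 0.02, which puts Bbs5 at 178 to 425 fragments in 15 libraries and Cep70 at 233 to 497 in 12.

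ERKO oil was compared with WT oil first. Ttc18, Odf2l, Cep70 and Bbs5 were higher in ERKO oil, and no cilium or axoneme gene was lower past the threshold (adjusted p under 0.05, limma, two-sided, Benjamini-Hochberg over all genes tested). The 4 genes are 7.14% of the 56, and 1.43% of all genes tested passed in this comparison in either direction and 0.751% as higher. Ttc18, Odf2l and Cep70 were named singly in a choice made with earlier results known, so the share of 7.14% is not independent of these data. At an unadjusted p under 0.05, 22 of the 56 were higher (39.3%, against 12.2% of all genes) and 2 lower (3.57%, against 9.43%). The median change of the 56 on the log2(FPKM + 1) scale was 0.19, against 0.02 over all genes. In tissue RNA, fewer cells of a type and less RNA per cell cannot be told apart.

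Ttc18, on chromosome 14, encodes a repeat protein that sits on the axoneme near the outer dynein arms. It was at 2.10, 2.07 and 3.17 FPKM in WT oil, 3.64, 4.25 and 3.05 FPKM in KIKO oil and 5.22, 4.88 and 4.61 FPKM in ERKO oil. The ERKO oil libraries all lay above the WT oil libraries, and the ratio of the group means was 2.00 (log2 change 0.79 ± 0.16, adjusted p = 0.0326, limma). With E2 its libraries held 2.59, 2.20 and 3.73 FPKM in WT E2, 3.74, 3.87 and 3.56 FPKM in KIKO E2 and 4.27, 3.75 and 3.52 FPKM in ERKO E2, and the 3 ERKO values overlapped with those of WT.

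Odf2l, on chromosome 3, encodes a basal body protein related to an outer dense fibre protein of sperm, and Cep70, on chromosome 9, a centrosomal protein that binds microtubules. Odf2l was at 8.11, 7.67 and 6.81 FPKM in WT oil, 11.1, 11.4 and 10.8 FPKM in KIKO oil and 13.6, 13.9 and 12.5 FPKM in ERKO oil (ratio of ERKO oil to WT oil means 1.77, log2 change 0.75 ± 0.15, adjusted p = 0.0326, limma). Under E2 the values of Odf2l were 11.5, 9.600 and 10.2 FPKM in WT E2, 9.41, 13.2 and 9.94 FPKM in KIKO E2 and 13.4, 11.3 and 8.13 FPKM in ERKO E2. The 3 oil groups did not overlap for this gene, with WT lowest and ERKO highest, while under E2 the 3 genotypes overlapped. Cep70 was at 7.80, 7.74 and 6.12 FPKM in WT oil, 11.03, 11.97 and 8.79 FPKM in KIKO oil and 12.98, 12.9 and 12.4 FPKM in ERKO oil (ratio 1.77, log2 change 0.75 ± 0.16, adjusted p = 0.0367, limma). Under E2 it held 9.63, 6.91 and 9.07 FPKM in WT E2, 9.70, 12.3 and 8.23 FPKM in KIKO E2 and 11.2, 11.2 and 8.31 FPKM in ERKO E2. Its oil groups were also apart from each other in the same order, and the E2 groups were not.

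Bbs5, on chromosome 2, encodes the BBSome subunit that binds phosphoinositide lipids. It was at 11.3, 8.88 and 12.9 FPKM in WT oil, 13.8, 14.8 and 15.7 FPKM in KIKO oil and 17.3, 15.98 and 16.03 FPKM in ERKO oil (ratio 1.49, log2 change 0.55 ± 0.12, adjusted p = 0.0355, limma). The E2 libraries held 14.7, 14.6 and 13.1 FPKM in WT E2, 14.9, 14.4 and 13.1 FPKM in KIKO E2 and 15.7, 13.1 and 15.6 FPKM in ERKO E2. The 3 WT oil libraries held the 3 lowest of the 18 values of Bbs5. Of the 4 genes, Ttc18, Odf2l and Cep70 are named singly in the choice of genes. Of the 52 genes found by a family name 1 passed, Bbs5, where 1.43% of all genes passed in either direction and 0.751% as higher.

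**Figure D1:**
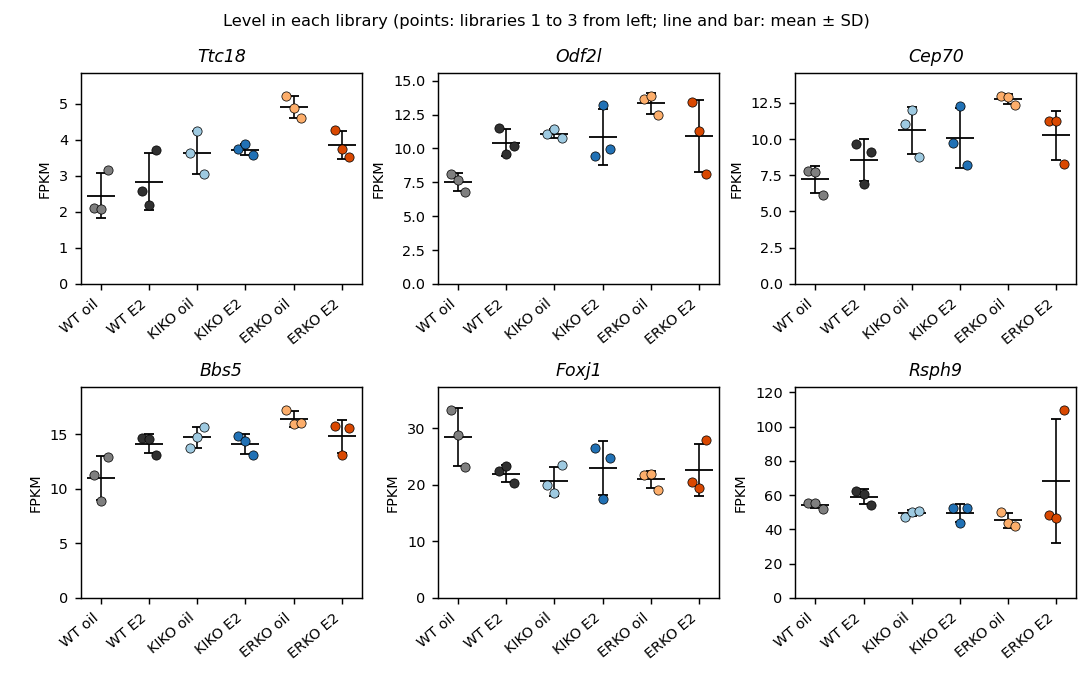
FPKM of Ttc18, Odf2l, Cep70, Bbs5, Foxj1 and Rsph9 in the 18 libraries by group; points are libraries, and the line and bar are the mean ± SD of 3. The first 4 genes are lowest in WT oil and highest in ERKO oil, Foxj1 is highest in WT oil, and Rsph9 stands out in the library ERKO E2 3.

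Leaving out single libraries moved these calls. Without WT oil 1, without WT oil 2 or without any single ERKO oil library, 0 of the 56 genes passed in limma, while 42, 12, 6, 8 and 1 of all genes did. Without WT oil 3 the genes Bbs5, Bbs7 and Ttc18 passed, and Odf2l and Cep70 did not. Over 19 alternatives Ttc18 passed in 13, with changes from 0.71 to 1.00 and adjusted p from 0.00298 to 0.147, and Odf2l, Bbs5 and Cep70 passed in 12 each. No alternative gave the opposite sign for any of these 4.

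The number of genes called also moved with the library ERKO E2 3, which is in neither group but shares the estimate of the spread. With that library out of the fit, 21 of the 56 passed, 19 higher and 2 lower, where 22.5% of all genes passed. The 19 took in the 4 genes above, Bbs2 and Bbs7, Ift74, Ift80, Ift81 and Ift88, the dyneins Dnahc5, Dnahc7a, Dnahc7b, Dnahc10 and Dnahc11, and Rsph4a, Spag5, Spag6 and Spag9. The 2 lower genes were Foxj1 and Rsph9 (adjusted p = 0.0491 and 0.0393). When libraries were instead weighted by their quality, 19 passed, all higher, where 19.8% of all genes passed.

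**Figure D2:**
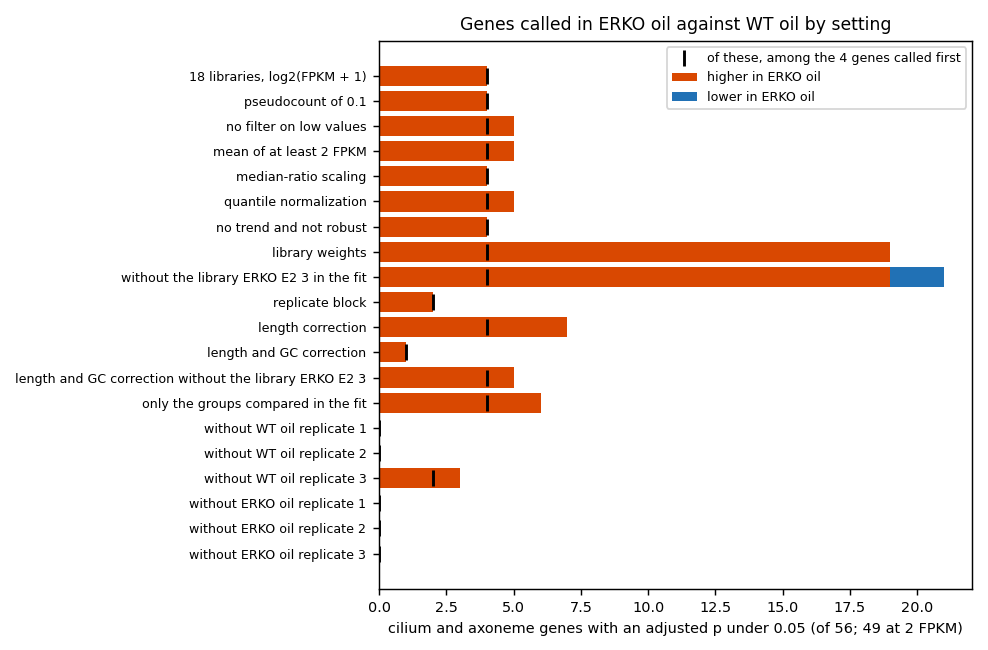
Number of the 56 genes past an adjusted p of 0.05 in ERKO oil against WT oil, by setting (bars, split by direction); the tick marks how many of the 4 genes Ttc18, Odf2l, Cep70 and Bbs5 are among them. The count runs from 0 when 1 of 5 oil libraries is left out to 21 without ERKO E2 3.

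Base composition and transcript length moved with the change. Among the 56 genes the log2 change between ERKO oil and WT oil correlated with GC content at r = −0.704 and with log2 transcript length at r = 0.497, and over 14013 genes with a transcript length the values were −0.539 and 0.439. These are descriptions across genes, which share the 6 libraries and are not independent replicates. In 5 equal bins of all genes from the lowest to the highest GC content, which held 4 to 16 cilium genes each, the median change of all genes went from 0.25 through 0.12, 0.00 and −0.11 to −0.21, and that of the cilium genes from 0.40 through 0.37, 0.16 and −0.06 to −0.28. Bbs5, Cep70 and Odf2l have the lowest GC contents of the 56, at 39.9%, 40.3% and 40.8%, and Foxj1 the highest, at 61.4%.

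A smooth trend on length and GC content was then removed from each library. One of the 56 genes passed after this correction, Ttc18 (0.72, adjusted p = 0.0302), along with 0.799% of all genes. Odf2l, Cep70 and Bbs5 stood at 0.59, 0.57 and 0.50 (adjusted p = 0.0918, 0.0985 and 0.105), and the median of the 56 was 0.10. With the same correction and without ERKO E2 3, the 5 genes Ttc18, Odf2l, Cep70, Bbs5 and Bbs2 passed, along with 6.88% of all genes. With a correction for length alone 7 passed, along with 5.11% of all genes.

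**Figure D3:**
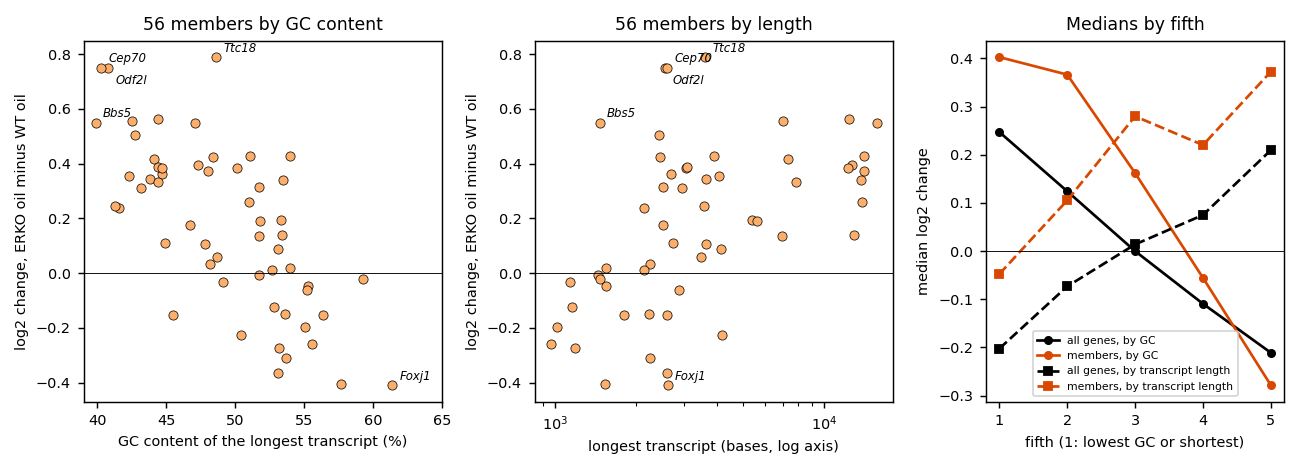
Left and middle, log2 change between ERKO oil and WT oil of each of the 56 genes against the GC content (%) and the length (bases, log axis) of its longest transcript; right, median change in 5 equal bins of GC content or length for all genes (black) and the 56 (orange). Genes with low GC content or long transcripts have the higher changes in both sets.

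The regulator Foxj1, on chromosome 11, was at 33.2, 28.8 and 23.1 FPKM in WT oil, 19.9, 18.5 and 23.4 FPKM in KIKO oil and 21.8, 21.9 and 19.1 FPKM in ERKO oil. The 3 ERKO oil libraries lay below the 3 WT oil libraries, but the difference did not pass (log2 change −0.41 ± 0.17, adjusted p = 0.175, limma). Under E2 it held 22.4, 23.2 and 20.3 FPKM in WT E2, 26.6, 17.5 and 24.7 FPKM in KIKO E2 and 20.6, 19.5 and 27.9 FPKM in ERKO E2, and the 3 groups overlapped. After the length and GC correction the oil difference was −0.15. Of the other genes, Rsph1 followed Foxj1 most closely (r = 0.935 of deviations from the group means over 17 libraries without ERKO E2 3, a description), while over all 18 Spef1 (0.841) and Rsph1 (0.833) were nearest. In the same 17 libraries, the 13 genes with r of at least 0.5 had a median GC content of 53.1%, and the 11 with r of −0.3 or lower one of 44.1%.

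The motors of the dynein arms, the axonemal heavy chains, had positive changes in all 9 members, from 0.14 to 0.56 with a median of 0.38, and 0 passed in limma (7 at an unadjusted p under 0.05). In all 9 the ERKO oil libraries lay above the WT oil libraries; over all genes 20.8% were apart in this direction and 18.4% in the other. Their summed level ran from 20.9 to 23.9 FPKM in WT oil, from 24.4 to 26.6 FPKM in KIKO oil and from 28.9 to 31.9 FPKM in ERKO oil. These are also the longest transcripts of the 56, at 12245 bases or more, and after the length and GC correction their median was −0.04, with 4 positive and 5 negative.

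Dnahc1, an inner arm motor, had the highest level of the class. It was at 9.72, 9.54 and 8.85 FPKM in WT oil, 10.5, 10.5 and 10.6 FPKM in KIKO oil and 10.4, 10.6 and 10.2 FPKM in ERKO oil (0.14 ± 0.08, adjusted p = 0.298, limma, and −0.16 after the length and GC correction). With E2 the values were 9.90, 9.62 and 10.3 FPKM in WT E2, 10.3, 10.1 and 9.46 FPKM in KIKO E2 and 11.2, 10.8 and 10.1 FPKM in ERKO E2. All 18 values of this gene lay between 8.85 and 11.2 FPKM. Dnahc5, an outer arm motor, was at 0.825, 1.04 and 0.760 FPKM in WT oil and 1.79, 1.54 and 1.89 FPKM in ERKO oil (0.55 ± 0.16, adjusted p = 0.0836). Dnahc7a and Dnahc7b are near-identical copies whose reads may have been split between them, and their values (0.38 ± 0.14 and 0.56 ± 0.24) are uncertain.

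The intermediate and light chains, which hold and regulate the motors, had a median of 0.01, and of 0.15 with all 3 positive after the length and GC correction. Dnaic1 had a change of 0.31 ± 0.23, Dnaic2 of −0.06 ± 0.17 and Dnali1, an inner arm light chain, of 0.01 ± 0.21 (−0.01 with median-ratio scaling), and 0 of the 3 passed in limma or at an unadjusted p under 0.05. Dnali1 was at 13.9, 13.7 and 11.3 FPKM in WT oil, 9.31, 10.5 and 11.5 FPKM in KIKO oil and 15.2, 13.5 and 10.7 FPKM in ERKO oil. Its E2 libraries held 13.1, 14.4 and 15.2 FPKM in WT E2, 13.9, 10.6 and 14.1 FPKM in KIKO E2 and 12.8, 10.8 and 24.01 FPKM in ERKO E2. ERKO E2 3 held the highest value of the 18, and WT oil and ERKO oil overlapped.

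Of the radial spoke genes 1 was positive and 4 were negative, with a median of −0.26, and 0 of 5 passed in limma (1 higher and 1 lower at an unadjusted p under 0.05). Rsph4a, a spoke head protein, had a change of 0.34 ± 0.12, and Rsph3b, Rsph1, Rsph9 and Rsph3a changes of −0.31 ± 0.13, −0.27 ± 0.26, −0.26 ± 0.22 and −0.15 ± 0.11. Rsph3a and Rsph3b are near-identical copies and uncertain. Rsph9, also in the spoke head, was at 55.1, 55.3 and 52.1 FPKM in WT oil, 47.5, 50.4 and 50.9 FPKM in KIKO oil and 49.95, 43.8 and 41.9 FPKM in ERKO oil. Under E2 it held 62.6, 60.8 and 54.01 FPKM in WT E2, 52.7, 43.8 and 52.6 FPKM in KIKO E2 and 48.1, 46.6 and 109.8 FPKM in ERKO E2. Its 3 ERKO oil libraries were below the 3 WT oil libraries, and ERKO E2 3 held the highest value of all, with the next at 62.6 FPKM in WT E2 1. After the length and GC correction the oil difference of Rsph9 was 0.10 and the median of the 5 spoke genes 0.00.

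The central apparatus genes had a median of 0.33, with 4 positive and 1 negative, and 0 of 5 passed in limma (3 higher at an unadjusted p under 0.05). After the length and GC correction the median was 0.03, with 3 positive and 2 negative. Spef2, Spag6, Spag17 and Spag16 stood at 0.55 ± 0.26, 0.43 ± 0.16, 0.33 ± 0.13 and 0.25 ± 0.17. Spef1, which bridges the central pair and has the highest level of the class, stood at −0.36 ± 0.24. It was at 13.7, 9.07 and 9.21 FPKM in WT oil, 8.44, 7.12 and 8.73 FPKM in KIKO oil and 9.17, 7.90 and 6.82 FPKM in ERKO oil. With E2 it held 9.11, 8.86 and 8.08 FPKM in WT E2, 10.1, 7.25 and 11.1 FPKM in KIKO E2 and 8.82, 8.62 and 19.5 FPKM in ERKO E2, and WT oil 1 and ERKO E2 3 were its highest libraries.

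Tektins, filaments along the doublets, were at or below 0.02 in all 4 members (median −0.08), and 0 passed in limma or at an unadjusted p under 0.05. Tekt1 was at 19.7, 17.7 and 14.5 FPKM in WT oil, 15.3, 15.5 and 17.1 FPKM in KIKO oil and 19.7, 15.99 and 15.98 FPKM in ERKO oil (−0.01 ± 0.26, and 0.20 after the length and GC correction). Its E2 values were 19.3, 16.7 and 18.8 FPKM in WT E2, 21.1, 14.6 and 19.04 FPKM in KIKO E2 and 15.8, 15.4 and 40.9 FPKM in ERKO E2. The oil groups of WT and ERKO overlapped, and ERKO E2 3 was again the highest library. Tekt4 had the lowest value of the class, −0.40 ± 0.24.

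**Figure D4:**
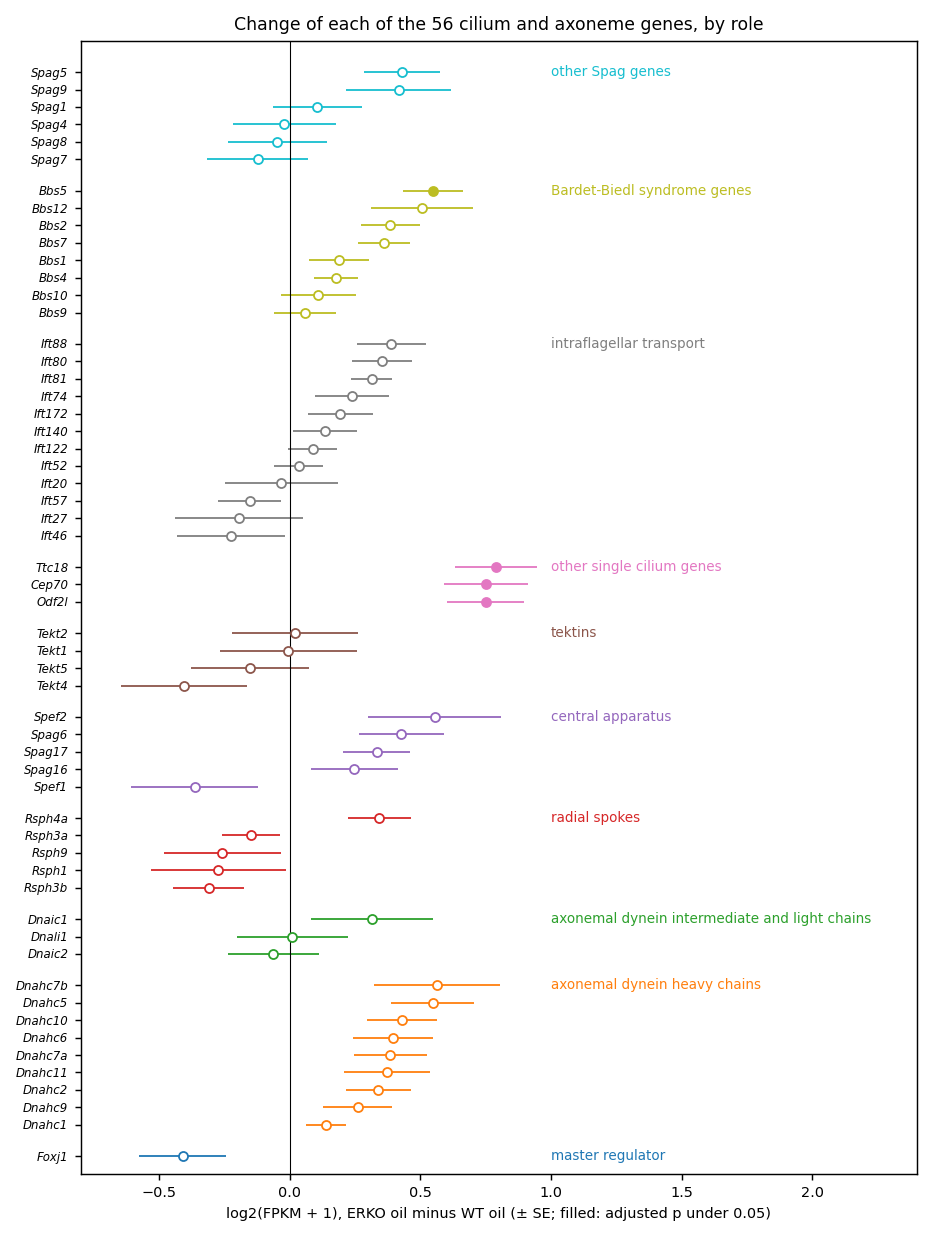
Log2 change of each of the 56 genes between ERKO oil and WT oil on the log2(FPKM + 1) scale, with SE, grouped and coloured by role; filled points have an adjusted p under 0.05. Dynein heavy chains and Bardet-Biedl syndrome genes are all above 0, and Foxj1, 4 of 5 radial spoke genes and Spef1 are among those below it.

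Among the 12 intraflagellar transport genes, 8 were positive and 4 negative (median 0.11), and 0 passed in limma (3 higher at an unadjusted p under 0.05). Ift81, Ift88 and Ift80, all of the IFT-B particle that carries cargo to the tip, stood at 0.31 ± 0.08, 0.39 ± 0.13 and 0.35 ± 0.12 (adjusted p = 0.0541, 0.119 and 0.110, limma). Ift81 was at 22.2, 21.1 and 22.8 FPKM in WT oil and 29.9, 27.9 and 25.1 FPKM in ERKO oil, without overlap, and it also passed with no filter on low values, with a minimum of 2 FPKM and with quantile normalization. Ift122 and Ift140, of the IFT-A particle that returns cargo, stood at 0.09 ± 0.09 and 0.13 ± 0.12.

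Ift20, which also works at the Golgi and has the highest level of the class, was at 48.2, 58.98 and 44.7 FPKM in WT oil, 54.05, 46.7 and 54.8 FPKM in KIKO oil and 51.7, 50.8 and 45.2 FPKM in ERKO oil (−0.03 ± 0.22, and 0.16 after the length and GC correction). The E2 libraries held 70.6, 69.9 and 50.5 FPKM in WT E2, 50.5, 48.6 and 60.2 FPKM in KIKO E2 and 49.8, 42.4 and 92.3 FPKM in ERKO E2. ERKO oil lay within the range of WT oil for this gene.

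The Bardet-Biedl syndrome genes were positive in all 8 members, from 0.06 to 0.55 with a median of 0.27, and 1 passed, Bbs5 (4 at an unadjusted p under 0.05). Their summed level was 95.7 to 101 FPKM in WT oil, 111 to 117 FPKM in KIKO oil and 117 to 129 FPKM in ERKO oil, and WT oil was apart from both. The BBSome subunits Bbs2, Bbs7, Bbs1, Bbs4 and Bbs9 stood at 0.38 ± 0.11, 0.36 ± 0.10, 0.19 ± 0.11, 0.18 ± 0.08 and 0.06 ± 0.12 (adjusted p = 0.0826 for Bbs2 and 0.0709 for Bbs7, limma). Bbs12 and Bbs10, chaperonin-like proteins that assemble the coat, stood at 0.51 ± 0.19 and 0.11 ± 0.14. After the length and GC correction 7 of the 8 were positive, with a median of 0.20.

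Bbs4, the subunit with the highest level, was at 28.1, 27.9 and 27.3 FPKM in WT oil, 28.03, 31.2 and 29.8 FPKM in KIKO oil and 33.6, 31.5 and 29.5 FPKM in ERKO oil. Under E2 its libraries held 26.3, 32.5 and 31.3 FPKM in WT E2, 30.1, 30.1 and 31.2 FPKM in KIKO E2 and 28.6, 30.4 and 28.9 FPKM in ERKO E2. The 3 ERKO oil libraries lay above the 3 WT oil libraries by a small margin, and the E2 groups overlapped.

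The other Spag genes share a name and not a function, and 0 of 6 passed in limma (1 higher at an unadjusted p under 0.05, Spag5). Spag9, a scaffold of JNK signalling and motor transport rather than an axoneme protein, was at 48.4, 61.7 and 65.2 FPKM in WT oil, 62.2, 68.8 and 62.03 FPKM in KIKO oil and 76.6, 75.00 and 81.7 FPKM in ERKO oil (0.42 ± 0.20). With E2 it held 64.2, 66.1 and 72.9 FPKM in WT E2, 64.5, 74.1 and 62.8 FPKM in KIKO E2 and 69.1, 75.2 and 35.6 FPKM in ERKO E2, the lowest of all in ERKO E2 3, and the ERKO oil libraries lay above the WT oil libraries. Without these 6 genes, 4 of 50 passed and the median was 0.22.

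**Figure D5:**
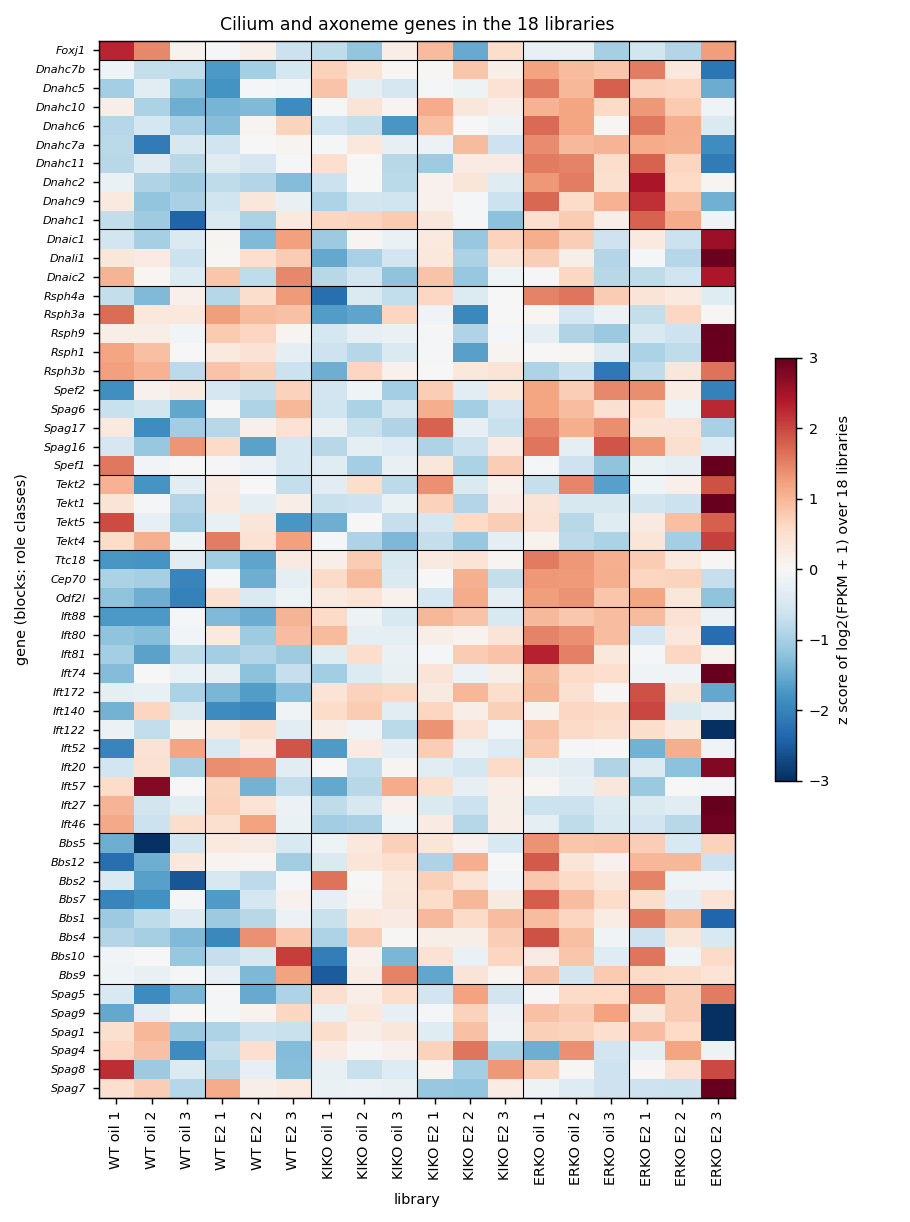
Heat map of the 56 genes (rows, in blocks by role from Foxj1 at the top to the other Spag genes) in the 18 libraries (columns), as z scores of log2(FPKM + 1) over the libraries. Most dynein heavy chains are high in ERKO oil 1 to 3 and ERKO E2 1 and 2, and the column ERKO E2 3 differs from its neighbours in most rows.

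Promoter windows were read to see which of these genes carry the binding sequence of RFX factors, the X-box, near their start. Of the 56 genes 49 matched the RefSeq promoter table (GRCm38.p6), with 54 windows of 250 bases before the start. On either strand, 6 windows of 5 genes held a full RFX X-box match (11.1%, against 1.29% of all 32851 windows), and 0 held the forkhead motif GTAAACA (against 3.17%). Tekt2 has overlapping windows that hold the same match, so its site is counted more than once in the 6. Other spellings of the X-box were tried before this one, so the share of 11.1% is not independent of that choice. Each match is shown with up to 15 bases on each side, read 5′ to 3′ along the gene, with the matched bases in capitals.
Dnaic1, chr4:41569760-41569793, plus strand: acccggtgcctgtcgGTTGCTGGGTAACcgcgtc
Dnaic2, chr11:114727371-114727413, plus strand: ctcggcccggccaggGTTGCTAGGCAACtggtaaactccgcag
Ift57, chr16:49699219-49699261, plus strand: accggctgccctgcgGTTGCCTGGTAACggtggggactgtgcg
Spag16, chr1:69826852-69826895, plus strand: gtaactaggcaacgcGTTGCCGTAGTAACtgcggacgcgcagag
Tekt2, chr4:126325690-126325732, minus strand: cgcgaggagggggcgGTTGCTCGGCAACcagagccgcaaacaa
The 5 genes stood at 0.31 ± 0.23, −0.06 ± 0.17, −0.15 ± 0.12, 0.25 ± 0.17 and 0.02 ± 0.24 in ERKO oil against WT oil, and 0 of them passed in limma or at an unadjusted p under 0.05.

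The 4 called genes held no full match in these windows. For Cep70 and Ttc18 the bases after the window were not found near the beginning of an annotated transcript, so their windows may not lie before its start. The closest stretches of Cep70 and Odf2l met 10 and 9 of the 11 fixed letters of the X-box and are printed for comparison, in the same way.
Cep70, chr9:99243231-99243274, plus strand: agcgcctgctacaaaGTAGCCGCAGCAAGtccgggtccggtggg
Odf2l, chr3:145118564-145118599, plus strand: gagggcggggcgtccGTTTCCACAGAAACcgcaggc
At least 10 letters were met in 35.2% of the cilium windows and in 9.77% of 3286 windows scored across the table, and at least 9 in 77.8% and 56.1%. Bbs5 and Ttc18 met 8 letters, which 99.1% of the scored windows reach. A match is a description of letters and not of binding.

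KIKO oil against WT oil shares the WT oil libraries with the comparison above, so the 2 are set side by side and not counted as independent. In limma 0 of the 56 genes passed, where 0.0135% of all genes did, and 6 were higher and 2 lower at an unadjusted p under 0.05 (10.7% and 3.57%, against 6.04% and 4.01% of all genes). The median was 0.04. In 10 genes the KIKO oil libraries all lay above those of WT oil and in 4 below, which was so for 12.5% and 9.35% of all genes. The 2 smallest p were those of Bbs2 (0.40 ± 0.11, adjusted p = 0.232, limma) and Bbs5 (0.40 ± 0.12, 0.238). Ttc18, Odf2l and Cep70 stood at 0.44 ± 0.16, 0.51 ± 0.15 and 0.49 ± 0.16 and Foxj1 at −0.44 ± 0.17 (adjusted p = 0.373), with KIKO oil 3 inside the range of WT oil. Heavy chains had a median of 0.16, radial spokes of −0.13 with all 5 negative, and Bardet-Biedl syndrome genes of 0.15. Changes in KIKO oil against WT oil had r = −0.543 with GC content among the 56 and −0.336 among all genes.

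ERKO oil against KIKO oil gave 0 genes in limma, with 0.0% of all genes passing, and 8 higher and 0 lower at an unadjusted p under 0.05 (14.3% higher, against 1.21% of all genes). The median was 0.15, against 0.01 over all genes, and 45 of 56 changes were positive. Rsph4a (0.44 ± 0.12) and Dnahc6, an inner arm motor (0.44 ± 0.15), had the smallest p (adjusted p = 0.998 for both, limma). The changes of Ttc18, Odf2l, Cep70 and Bbs5 were 0.35 ± 0.16, 0.24 ± 0.15, 0.26 ± 0.16 and 0.15 ± 0.12, and that of Foxj1 0.03 ± 0.17. For each of the first 4 the 3 ERKO oil libraries lay above the 3 KIKO oil libraries. Over all genes 14.5% were apart in this direction and 13.6% in the other. These 4 genes were picked for high values in the same ERKO oil libraries, so their separation here is not independent of the first comparison. GC content followed these changes too, with r = −0.545 among the 56 and −0.498 among all genes.

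The genotypes were next compared under E2. In ERKO E2 against WT E2, 0 of the 56 passed in limma, where 1.3% of all genes did, with 7 higher and 0 lower at an unadjusted p under 0.05 (12.5% higher, against 5.26% of all genes) and a median of 0.10. In 6 genes the ERKO E2 libraries were all above those of WT E2 and in 1 below, which held for 4.7% and 6.29% of all genes. Dnahc10, an inner arm motor on chromosome 5, was at 2.27, 1.67 and 1.44 FPKM in WT oil and 1.46, 1.498 and 1.26 FPKM in WT E2. In ERKO it was at 2.80, 2.89 and 2.52 FPKM in ERKO oil and 2.98, 2.63 and 2.09 FPKM in ERKO E2. It just missed the threshold under E2 (0.56 ± 0.13, adjusted p = 0.0505, limma) and passed in 8 of 19 alternatives. Among them was 0.66 without ERKO E2 3 (adjusted p = 0.0114), where 4 of the 56 and 8.7% of all genes passed, a fit counted more than once in the 8. It passed in no setting corrected for transcript length or GC content. Over the 19 its change ran from 0.31 to 0.81 and its adjusted p from 0.00829 to 0.807 (limma). Spag5, a spindle protein, came next (0.54 ± 0.15, adjusted p = 0.106). Ttc18 stood at 0.35 ± 0.16, Cep70 at 0.24 ± 0.16, Bbs5 at 0.06 ± 0.12, Odf2l at 0.04 ± 0.15 and Foxj1 at 0.03 ± 0.17.

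In KIKO E2 against WT E2, which shares the WT E2 libraries, 0 passed in limma, where 0.948% of all genes did, with 5 higher and 2 lower at an unadjusted p under 0.05 (8.93% and 3.57%, against 4.96% and 4.01% of all genes) and a median of 0.04. Dnahc10 again had the smallest p, at 2.85, 2.36 and 2.26 FPKM in KIKO E2 (0.53 ± 0.13, adjusted p = 0.0846, limma), with all 3 KIKO E2 libraries above the highest WT E2 library. Dnahc10 passed in 3 of 19 alternatives, among them 0.53 without ERKO E2 3 in the fit (adjusted p = 0.0269), and in no setting corrected for transcript length or GC content. Ift172, an IFT-B subunit, followed (0.40 ± 0.12, adjusted p = 0.217) and also passed in 3 of 19 alternatives. Among them was 0.33 with the length and GC correction without ERKO E2 3 (adjusted p = 0.0307, limma), where 4.5% of all genes passed. It did not pass with that correction over all 18 libraries. Foxj1 stood at 0.04 ± 0.17.

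E2 against oil was then compared within each genotype. In WT, 0 of the 56 passed in limma, where 0.785% of all genes did, and 2 were higher and 0 lower at an unadjusted p under 0.05 (3.57%, against 6.27% of all genes higher). These 2 were Bbs5 (0.35 ± 0.12, adjusted p = 0.240, limma) and Odf2l (0.42 ± 0.15, 0.284), whose WT E2 libraries lay above the WT oil libraries. Foxj1 stood at −0.34 ± 0.17, with 1 WT oil library, WT oil 3, inside the range of WT E2. The median was 0.08, and the changes had r = −0.438 with GC content among the 56 and −0.291 among all genes.

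In KIKO, 0 passed in limma, where 0.00677% of all genes did, and 0 had an unadjusted p under 0.05. The smallest p were those of Dnahc6 (0.28 ± 0.15) and Rsph4a (0.22 ± 0.12), both with an adjusted p of 1, and Foxj1 stood at 0.13 ± 0.17. In ERKO, 0 passed in limma, where 0.0% of all genes did, and 1 was higher and 3 lower at an unadjusted p under 0.05 (1.79% and 5.36%, against 3.5% and 3.73% of all genes). Ift80 (−0.35 ± 0.12) and Dnahc5 (−0.35 ± 0.16) had the smallest p, with an adjusted p of 0.473 for both, and Foxj1 stood at 0.09 ± 0.17. The ERKO changes had r = −0.599 with transcript length among the 56 and −0.609 among all genes. With GC content the values were 0.688 and 0.392. Dnahc5 was at 1.42, 1.40 and 0.692 FPKM in ERKO E2, lowest in ERKO E2 3 and in all 3 below the ERKO oil libraries.

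The difference between genotypes in the E2 response was tested directly. Each of these contrasts contains the genotype difference under oil with its sign reversed. Genes picked for high values in ERKO oil against WT oil therefore lean negative in ERKO minus WT, and their values here are not independent of that comparison. The KIKO minus WT contrast shares the WT oil libraries as well. For ERKO minus WT, 0 of the 56 passed in limma, where 0.278% of all genes did, and 0 were positive and 6 negative at an unadjusted p under 0.05 (10.7% negative, against 7.79% of all genes). Odf2l (−0.71 ± 0.21, adjusted p = 0.213, limma), Ift80 (−0.50 ± 0.16, 0.253) and Bbs5 (−0.49 ± 0.16, 0.261) led, and the difference of Odf2l was −0.53 without ERKO E2 3. Cep70 stood at −0.51 ± 0.23, Ttc18 at −0.44 ± 0.22 and Foxj1 at 0.44 ± 0.24. Differences in ERKO minus WT had r = 0.75 with GC content among the 56 and 0.466 among all genes. The GC content is 40.8% for Odf2l, 42.3% for Ift80, 39.9% for Bbs5 and 61.4% for Foxj1. For KIKO minus WT, 0 passed in limma, where 0.135% of all genes did, and 0 were positive and 2 negative at an unadjusted p under 0.05 (3.57% negative, against 2.75% of all genes). Those 2 were Bbs5 (−0.40 ± 0.16, adjusted p = 0.887) and Odf2l (−0.46 ± 0.21, 0.985), with Foxj1 at 0.47 ± 0.24.

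Over the 6 groups, ERKO oil had the highest mean of log2(FPKM + 1) for 25 of the 56 genes (44.6%, against 25.3% of all genes) and WT oil the lowest for 21 (37.5%, against 23.4%). KIKO oil was lowest for 15 (26.8%, against 8.4%).

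Further cilium genes were followed in 4 lists. In ERKO oil against WT oil, 0.751% of all genes passed as higher and 0.684% as lower. At an unadjusted p under 0.05, 12.2% of all genes were higher and 9.43% lower. Of 20 tested genes that assemble or dock dynein arms, 0 passed in limma in ERKO oil against WT oil (3 at an unadjusted p under 0.05), with a median of 0.07. Of 51 other motile cilium genes 1 was higher, Mns1, which encodes a protein inside the doublet microtubules (0.56 ± 0.12, adjusted p = 0.0409, limma), and 0 were lower, with a median of 0.23. Mns1 was at 6.15 ± 0.735 FPKM in WT oil, 6.69 ± 0.977 FPKM in KIKO oil and 9.52 ± 0.650 FPKM in ERKO oil (SD, n = 3). Among 15 regulators of multiciliation 0 passed in limma (3 at an unadjusted p under 0.05), with Rfx3, a partner of Foxj1, at 0.47 ± 0.21 and a median of 0.10.

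Of 70 genes of the transition zone, basal body and primary cilium, 2 were higher and 0 lower in ERKO oil, with a median of 0.12. Over all genes 0.751% passed as higher and 0.684% as lower. Ttc8, a further BBSome subunit also known as Bbs8, was at 17.96 ± 2.18 FPKM in WT oil, 25.8 ± 2.26 FPKM in KIKO oil and 27.2 ± 1.51 FPKM in ERKO oil (0.58 ± 0.11, adjusted p = 0.0274, limma). Tmem67, a membrane protein of the transition zone, was at 8.27 ± 0.497, 10.6 ± 0.501 and 12.4 ± 1.07 FPKM in the same groups (0.53 ± 0.10, adjusted p = 0.0274, limma). After the length and GC correction Ttc8 and Tmem67 passed at 0.52 and 0.43 (adjusted p = 0.0464 and 0.0351), while Mns1 did not pass at 0.28 (0.378). With 1 oil library of WT or ERKO left out, Tmem67 passed in 2 of 6 cases (without WT oil 1 or WT oil 3), Ttc8 in 1 (without WT oil 3) and Mns1 in 0.

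Markers of other cells in the tissue were read beside these values, and their part in the results was not tested. For these lists too, the shares of all genes in ERKO oil against WT oil were 0.751% past the threshold as higher and 0.684% as lower. At an unadjusted p under 0.05 they were 12.2% and 9.43%. Of 14 ependymal markers that are not cilium genes 0 passed in limma in ERKO oil against WT oil (1 higher and 1 lower at an unadjusted p under 0.05), with a median of −0.01. Their summed level was 3186 to 4182 FPKM in WT oil and 2360 to 3063 FPKM in ERKO oil, most of it Nnat (3155 ± 485 and 2335 ± 330 FPKM, SD, n = 3), which neurons also express, and Cxcl17 was at 0 in at least 1 library. Of 18 tanycyte markers 0 passed in limma (3 lower at an unadjusted p under 0.05), with a median of −0.16 and sums of 639 to 782 FPKM and 600.4 to 658 FPKM. Of 11 choroid plexus markers 0 passed in limma or at an unadjusted p under 0.05 (median −0.20, sums of 61.4 to 69.5 FPKM and 53.7 to 62.5 FPKM), and of the 16 listed Kcnj13, Otx2, Slc4a5 and Kcne2 were at 0 in at least 1 library.

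Markers of the brain's main cell classes also differed between these groups. Of 15 neuron markers Snhg11 was higher (0.95 ± 0.20, adjusted p = 0.0346, limma) and Nefm, a neurofilament, lower (−0.62 ± 0.14, 0.0367). The 15 summed to 2308 to 2493 FPKM in WT oil and 2924 to 2949 FPKM in ERKO oil. Snhg11 had the highest mean level of the 15, so this sum need not describe the other neuron markers. Of 12 astrocyte markers Gfap was lower (−1.06 ± 0.20, 0.0278), with a median of −0.12 and sums of 1253 to 1443 FPKM and 1124 to 1198 FPKM. Olig1 and Olig2, transcription factors of the oligodendrocyte lineage, were lower among 14 oligodendrocyte markers (−0.51 ± 0.12 and −0.53 ± 0.10, adjusted p = 0.0473 and 0.0274), with a median of −0.40 and sums of 1590.4 to 2117 FPKM and 1315 to 1503 FPKM. With 1 oil library left out, Gfap, Olig1 and Olig2 passed only without WT oil 3, and Snhg11, Nefm and Esr1 in 0 of 6 cases. Of 12 microglia and 13 endothelial and mural markers 0 passed in limma, with 1 of each list lower at an unadjusted p under 0.05 and medians of −0.15 and −0.17. The sums in WT oil and ERKO oil were 239.9 to 266 FPKM and 169 to 301 FPKM for microglia, and 115 to 195 FPKM and 122 to 147 FPKM for endothelial and mural markers.

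Pituitary markers varied between libraries of one group, and their part in the results was not tested. Of 7 tested markers 0 passed in limma in ERKO oil against WT oil (1 lower at an unadjusted p under 0.05), with a median of −0.40. The 11 listed summed to 1585 to 2111 FPKM in WT oil and 733 to 1359 FPKM in ERKO oil, most of it Pomc, which arcuate neurons express, and Chga. Cga, the shared subunit of the glycoprotein hormones, ran from 0 to 307 FPKM in WT oil, from 0 to 294 FPKM in WT E2, from 35.7 to 154 FPKM in KIKO oil and from 116 to 261 FPKM in KIKO E2. In ERKO oil Cga ran from 0 to 207 FPKM and in ERKO E2 from 4.93 to 172 FPKM. In KIKO E2 against WT E2, 0 of the 7 passed in limma (1 higher at an unadjusted p under 0.05), and their median was 1.47. Gh, Prl, Pou1f1, Fshb, Cga, Pitx1 and Gnrhr were at 0 in at least 1 library.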

How the data were processed

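RNA-seq of the arcuate nucleus was used from 18 libraries in 6 groups of 3. The authors deposited FPKM per gene with Cuffdiff after alignment with TopHat2 2.0 to mm10, per the submitters' processing notes, and the gene annotation is not given in the sources used here. FPKM hold no counts, and differences between libraries in how length and base composition affect yield are not removed by this unit, so no count test was run. Rows of 1 symbol were summed, and genes averaging 0.5 FPKM or more over the 18 libraries, without small RNAs, were tested on log2(FPKM + 1) with limma 3.58.1 (R 4.3.3). One fit of 6 group means with 12 residual degrees of freedom, a mean trend and robust variances gave 10 comparisons, with Benjamini-Hochberg adjustment over all 14774 genes in each and a threshold of 0.05. The fit was tested on simulated data.

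The genes named are Foxj1, those past the threshold, the most abundant of each role, those nearest to 0.5 FPKM, and the smallest 2 p where none passed. From the lists, those past the threshold are named, up to 4 a list, with the 10 genes most like the motile cilium genes. Other genes are named as examples after their values were seen. The genes, lists and rules were chosen with earlier results of these data known. Alternatives were another pseudocount (0.1), no filter, a minimum of 2 FPKM, median-ratio scaling, quantile normalization, no trend, library weights, fewer libraries and a replicate block. Corrections for transcript length and GC content (lowess with a span of 0.3, longest protein-coding transcript of GENCODE) were added after seeing the data. Promoter motifs were read in RefSeq windows, and other spellings of the X-box were tried before the one reported. Figures and summaries were made with Python 3.11.15, numpy 2.4.6, pandas 2.3.3 and matplotlib 3.10.9. One marker of the pituitary list is not reported here and was left out of its sums and median.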

Additional observations from a re-analysis of the deposited data

How the results depend on the processing

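In ERKO oil against WT oil, between 4 and 6 of the genes passed under a pseudocount of 0.1, no filter, a minimum of 2 FPKM, median-ratio scaling, quantile normalization, no trend and a fit of the 2 groups alone. Under these settings from 0.974% (no filter) to 11.2% (the 2 groups alone) of all genes passed. The 6 of 56 belong to the fit of the 2 groups alone, which has that highest share. The number was 19 with library weights (19.8% of all genes), 21 without ERKO E2 3 in the fit (22.5%) and 2 with the replicate block (0.433%). It was 7 with the length correction (5.11%) and 1 with the length and GC correction (0.799%). When 1 library of either group was left out it ran from 0 to 3, where from 0.00677% to 1.94% of all genes passed. In KIKO oil against WT oil it was 3 with library weights (2.38% of all genes) and 1 without ERKO E2 3 (1.81%), and in ERKO oil against KIKO oil it was 2 with library weights (0.508%). In ERKO E2 against WT E2 it was 1 with a pseudocount of 0.1, no filter, median-ratio scaling, no trend, the replicate block, the length correction and the length and GC correction with or without ERKO E2 3, where from 0.948% to 5.95% of all genes passed. There it was 5 with library weights (8.93%, against 8.81% of all genes) and 4 without ERKO E2 3 (7.14%, against 8.7%), and it ran from 0 to 4 when 1 library was left out. In KIKO E2 against WT E2 it was 1 with no trend (0.961% of all genes), 7 with library weights (6.97%), 4 without ERKO E2 3 (4.03%) and 2 with the length and GC correction without ERKO E2 3 (4.5%). The cause of these moves was not tested.

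Some small changes turned sign. In ERKO oil against WT oil, Ift20 was at 0.062 with quantile normalization, 0.18 with the length correction and 0.16 with the length and GC correction, Rsph9 at 0.10 with the last, and Tekt1 at 0.027 with library weights, 0.16 with the length correction and 0.20 with the length and GC correction. Dnali1 was at −0.0105 with median-ratio scaling and −0.031 with quantile normalization, and Dnahc1 at −0.23 with the length correction and −0.16 with the length and GC correction. With the length and GC correction, leaving out ERKO E2 3 as well gave the same values for these genes. Foxj1 in ERKO E2 against WT E2 was at −0.14 with library weights, −0.13 without ERKO E2 3, −0.0024 with the length and GC correction and −0.13 with that correction and without ERKO E2 3. In ERKO E2 against ERKO oil it was at −0.075, −0.059, −0.0465 and −0.18 under these settings, and Dnahc5 was at 0.011 with the length correction and 0.051 with the length and GC correction. With 1 library left out, Ift20 ran from −0.12 to 0.081, Tekt1 from −0.12 to 0.088 and Dnali1 from −0.094 to 0.14 in ERKO oil against WT oil. Foxj1 ran from −0.045 to 0.12 in ERKO oil against KIKO oil, from −0.13 to 0.12 in ERKO E2 against WT E2, from −0.074 to 0.22 in KIKO E2 against WT E2 and from −0.059 to 0.19 in ERKO E2 against ERKO oil.

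The deviations of same-numbered oil and E2 libraries of a genotype had correlations from −0.181 to 0.383. Those of same-numbered libraries of different genotypes ran from −0.314 to 0.095. With 3 libraries in a group, these values cannot exclude that replicate numbers pair some libraries. Whole fragments could be read from low values only in part, so the counting error is not known for every gene and library.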

Other observations

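Some genes of the primary cilium that were not described above, picked for their place in the pathway after their values were seen, stood on both sides of 0 in ERKO oil against WT oil. None of them passed in limma. Of the 70 genes of the list they come from 15 were higher and 5 lower at an unadjusted p under 0.05, where 12.2% of all genes were higher and 9.43% lower. Values above 0 were those of Tctn3 of the transition zone at 0.57 (adjusted p = 0.0503), Ofd1 of the basal body at 0.50 (0.0541), Arl13b of the ciliary membrane at 0.55 (0.0901) and the motor Kif3a at 0.29 (0.0708). Values below 0 were those of Mchr1, the receptor of melanin-concentrating hormone, at −0.48 (0.205), the somatostatin receptor Sstr3 at −0.42 (0.221) and adenylyl cyclase Adcy3 at −0.11 (0.687). Of the hedgehog pathway, which signals through this cilium, Smo stood at −0.30 (0.196), Gli1 at 0.42 (0.271), Ptch1 at 0.40 (0.735) and Gpr161 at 0.22 (0.737).

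Outside the lists, the 10 genes whose levels over the 18 libraries were most like the mean of the motile cilium genes were Ttc16 (r = 0.859), Ccdc162 (0.845), Ttll6 (0.787), Wdr27 (0.781), Vwa3a (0.766), Pamr1, T2, Tsnaxip1, Tug1 and Wdr38 (0.744). These values describe 18 libraries that include ERKO E2 3.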
